A study of Arabidopsis thaliana with 24 samples.

Results

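The genes described here encode 10 proteins of chlorophyll synthesis, chosen by their locus identifiers in the table of gene counts. They were 10 of the 33602 loci in the table, and all 10 were among the 20347 genes that passed the filter on low counts. RNA had been sequenced from shoots of Arabidopsis thaliana seedlings, 3 weeks old, of the ecotype Columbia-0. The 4 genotypes were the wild type (Col-0), a mutant of the peroxisomal catalase gene CAT2 (cat2), a mutant of the transcription factor gene SHORT-ROOT (shr), and the double mutant (cat2shr, labelled cat2xshr). The alleles are not named in the labels. Every seedling grew for 21 days on agar with 1% sucrose under 16 h of light and 8 h of dark. The unstressed groups (0 h) were taken then, and the stressed groups after 24 h in plates sealed with 2 layers of Parafilm, which restricts gas exchange, under continuous light. Each of the 8 groups had 3 libraries, 24 in all. An unstressed 24 h group is not among these samples, so sealing, continuous light, the hour of sampling and the added day cannot be told apart in a stress response. The study asked how loss of SHORT-ROOT alters the response of the catalase mutant to conditions that promote photorespiration.

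Chlorophyll is made in the chloroplast from glutamyl-tRNA. Glutamyl-tRNA reductase, encoded by HEMA1, acts early on the route that chlorophyll shares with haem, and Mg-chelatase sends protoporphyrin IX into the chlorophyll branch. Later enzymes methylate Mg-protoporphyrin, close the fifth ring, reduce protochlorophyllide in a light-dependent step (the POR enzymes) and oxidise chlorophyllide a to chlorophyllide b. Free intermediates of the pathway produce singlet oxygen in light, and the pathway is controlled tightly in leaves. Catalase removes the hydrogen peroxide that photorespiration forms in leaf peroxisomes.

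The promoters of all 10 genes were searched for the motifs named below. Those of PORA and PORB are shown because they shared a motif, a choice made after the matches were seen. The sequences come from the RefSeq copy of the TAIR10.1 assembly, and each window lies upstream of the annotated gene start, up to 250 bases or to the neighbouring gene. Capitals mark motif matches. PORA lies at chr5:21990864-21992814 on the minus strand, and the window is chr5:21992815-21993064. PORB lies at chr4:13725546-13727440 on the plus strand, and the 186 bases shown are chr4:13725360-13725545. CAO lies at chr1:16848308-16851271 on the minus strand, with its window at chr1:16851272-16851521, and it is shown for its pair of G-boxes.
PORA promoter: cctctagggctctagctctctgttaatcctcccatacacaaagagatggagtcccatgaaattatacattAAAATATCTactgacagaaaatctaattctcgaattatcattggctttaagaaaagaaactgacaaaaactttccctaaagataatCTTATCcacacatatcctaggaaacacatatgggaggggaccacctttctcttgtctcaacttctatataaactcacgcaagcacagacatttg
PORB promoter: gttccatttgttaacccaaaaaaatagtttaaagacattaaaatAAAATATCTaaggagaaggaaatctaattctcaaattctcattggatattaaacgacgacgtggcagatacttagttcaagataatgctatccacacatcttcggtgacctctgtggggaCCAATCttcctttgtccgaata
CAO promoter: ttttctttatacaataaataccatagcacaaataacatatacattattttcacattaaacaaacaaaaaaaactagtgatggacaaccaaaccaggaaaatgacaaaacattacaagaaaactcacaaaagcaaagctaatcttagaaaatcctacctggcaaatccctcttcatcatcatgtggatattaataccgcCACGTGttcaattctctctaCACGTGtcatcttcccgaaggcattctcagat
Motifs were searched on both strands in the full 250 bases before each start, whether or not a neighbouring gene lay there. The evening element AAAATATCT was found in PORA (first base at -180 from the gene start) and PORB (-142), and in none of the other 8 promoters. It occurred in 2.36% of 27443 promoters of the same length. The PORA window also held an I-box (GATAAG, on the other strand in the sequence above), which 12.3% of promoters held. PORB held the GLK-type letters CCAATC at -22, and again at -219, upstream of the bases shown. GUN4 also held CCAATC, and 10.2% of all promoters did. CAO held the G-box CACGTG at -52 and at -32, against 6.49% of promoters with at least 1. GUN4 further held the CCA1-binding letters AAAAATCT, present in 6.69% of promoters. HEMA1, GUN5, CHLI1, CHLD, CHLM and PORC held none of the 5 motifs in this window. A match describes letters and is not evidence of binding.

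The libraries held between 26.43 and 40.11 M counts each. Levels are given in CPM, counts scaled to a common library total and adjusted by the trimmed mean of M-values (TMM). Errors are SD over 3 libraries beside a level, and standard errors (SE) beside a log2 fold change. A change was called at an adjusted p under 0.05 in edgeR's quasi-likelihood test, with Benjamini-Hochberg adjustment over all 20347 genes. CAT2 was low in the groups that carry cat2, with means of 17.5 to 31.6 CPM against 209 to 890.4 CPM in the others. SHR averaged 0.466 to 1.04 CPM in the groups that carry shr and 5.31 to 9.96 CPM elsewhere, so both genes went with the labels. All 5 leaf markers were detected in each group, summing to between 8246 and 22176 CPM in a library, and the 9 root markers summed to at most 3.26 CPM. Of all libraries, shr replicate 1 at 0 h lay farthest from its group, with an SD of log2 differences to its partners of 0.655 against 0.348 to 0.556 in the other 23 libraries. An alternative fit without it and cat2shr replicate 1 at 0 h (0.540) gave the same number of these genes called in 7 of the 8 comparisons that use those libraries, and 6 rather than 5 for the difference between the cat2shr and shr responses. That cat2shr library did not stand apart at 0 h, with cat2shr replicate 3 at 0.539 and shr replicates 2 and 3 at 0.556 and 0.550.

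Stress lowered most of these genes in every genotype. In Col-0, 9 of the 10 fell and none rose, where 59.3% of all genes were called (29.7% higher and 29.6% lower). In cat2, 9 fell and none rose, against 75% of all genes called (38.7% higher and 36.3% lower). In shr, 6 fell and none rose, against 41.3% (20.4% higher and 20.9% lower), and in cat2shr 7 fell and 1 rose, against 64.4% (32.7% higher and 31.7% lower). The median log2 change of the 10 genes was -0.95 for Col-0, -1.09 for cat2, -0.44 for shr and -0.83 for cat2shr, while the median over all genes was between -0.02 and 0.03. The genes differed in span across the 8 groups. The highest group mean of PORC was 11.7 times the lowest, followed by PORA (8.98) and PORB (8.72), whereas CAO spanned only 2.03. In 8 of the 10 genes, all but HEMA1 and CHLI1, the highest mean was that of Col-0 at 0 h. For GUN5, PORB, PORC and CAO, the libraries of that group overlapped those of the group next in order. Per kilobase of exon, PORB had the highest level in Col-0 at 0 h (1541 CPM per kb) and PORA the lowest (48.7 CPM per kb). CHLI1 and GUN5 followed PORB at 385 and 324 CPM per kb. In whole shoots, fewer cells that express a gene and less RNA per cell cannot be told apart. Of the 5 leaf markers, 4 fell in cat2, 4 in cat2shr, 3 in shr and 1 in Col-0, where 1 rose. Their median log2 change was -1.002 in cat2, near that of the 10 genes (-1.09), and -0.61 in cat2shr, -0.38 in shr and -0.22 in Col-0. At 24 h all 5 were lower in cat2 than in the wild type, with a median log2 difference of -1.09, against -0.85 for the 10 genes. The part of a general change in leaf transcripts was not tested.

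**Figure D1:**
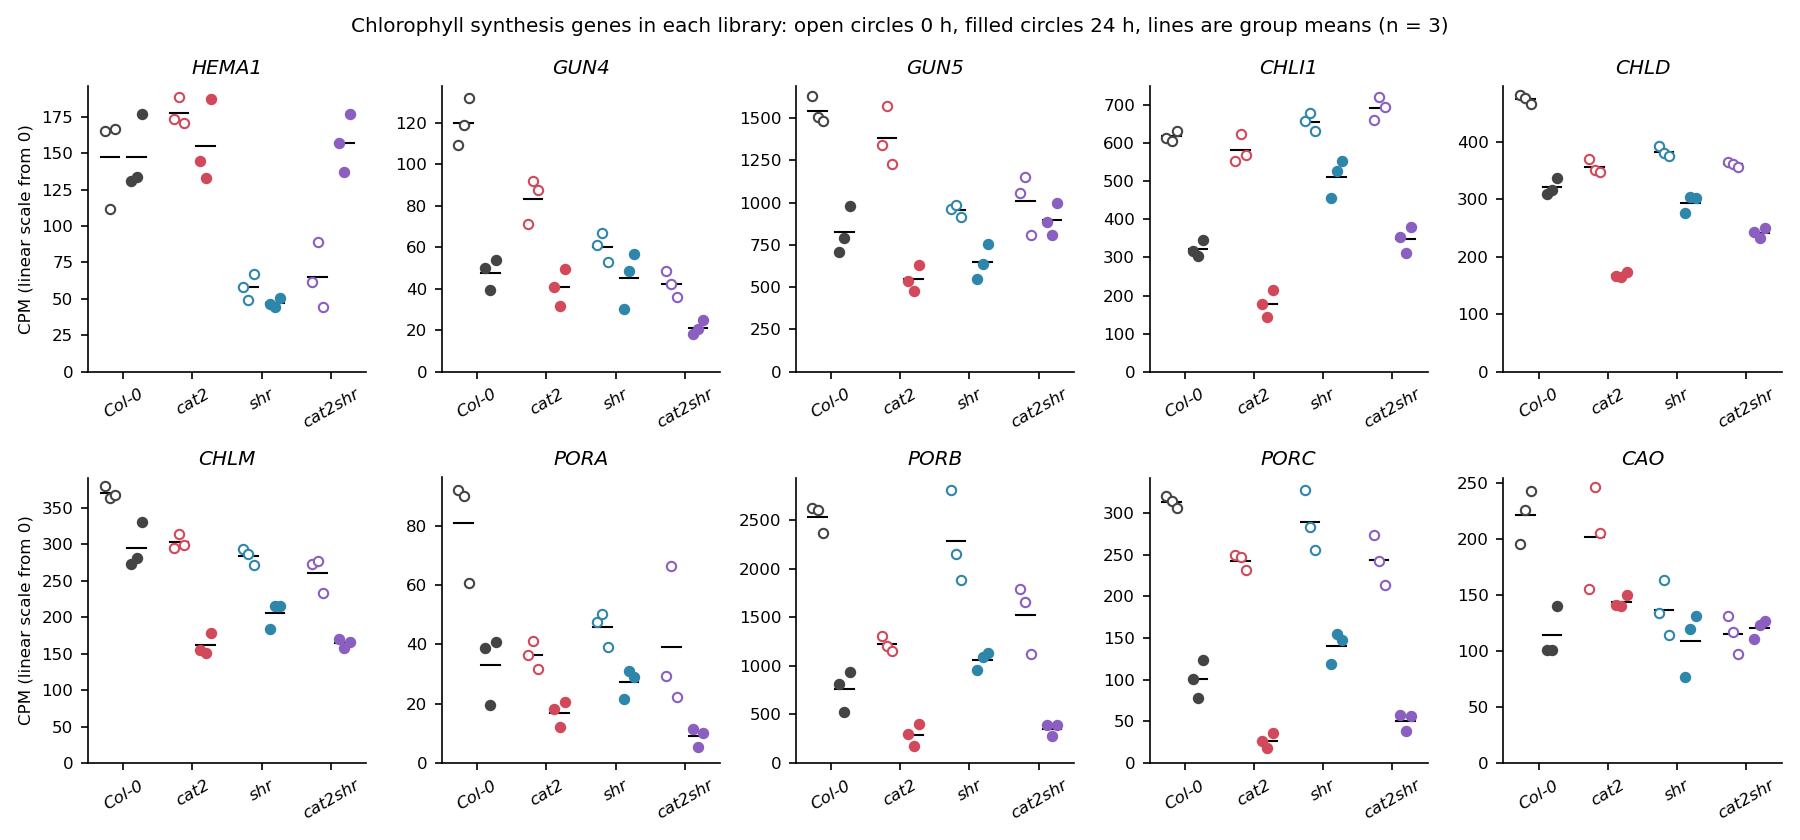
Level of each of the 10 genes (CPM, linear axis from 0) in every library. Open circles are 0 h, filled circles 24 h, and black lines are means of 3 libraries. CHLI1, CHLD, CHLM, PORA, PORB and PORC have no overlap between 0 h and 24 h in any genotype, whereas HEMA1 separates by time in cat2shr alone.

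**Figure D2:**
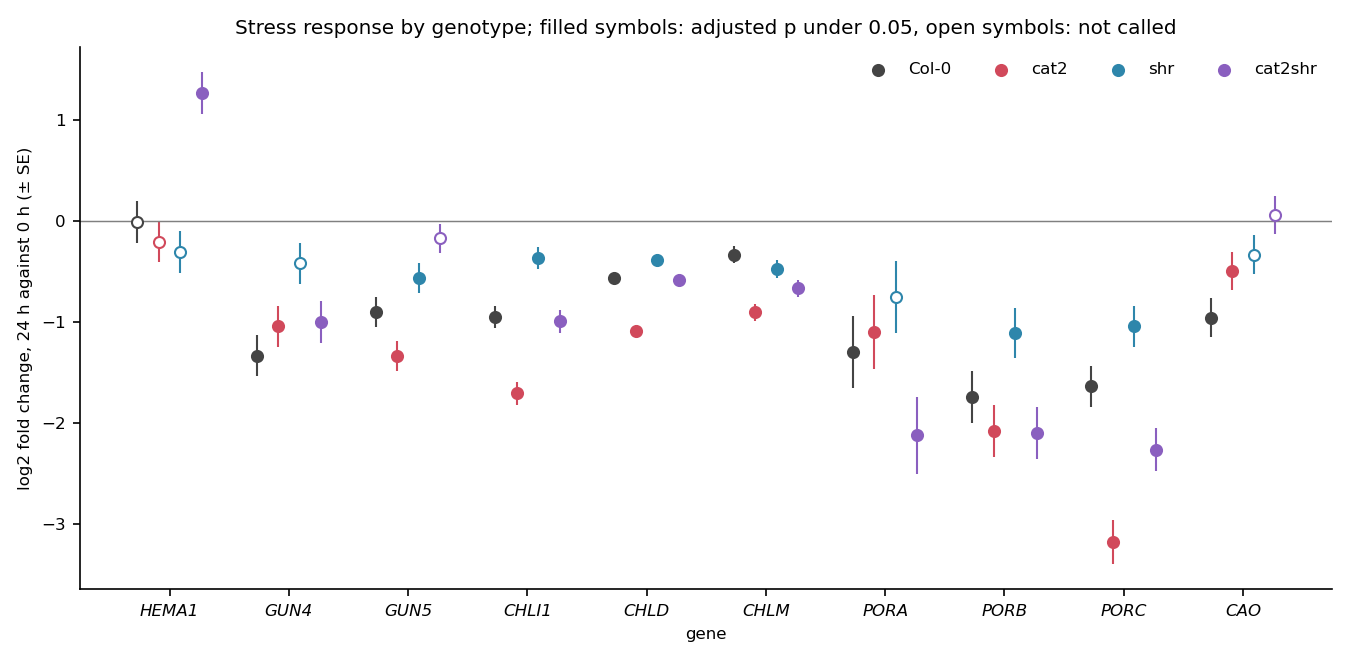
Log2 fold change of each gene at 24 h against 0 h in the 4 genotypes, with SE bars. Filled symbols passed an adjusted p of 0.05. PORC in cat2 shows the deepest fall (-3.18), and HEMA1 in cat2shr is the single called rise (1.27).

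HEMA1 (AT1G58290, chr1:21623700-21626402, minus strand), glutamyl-tRNA reductase, was lower before stress in both genotypes with the shr mutation, and was the 1 gene called higher under stress. At 0 h its levels were 165, 112 and 166 CPM in Col-0 and 174, 189 and 171 CPM in cat2. In shr they were 57.8, 49.0 and 67.2 CPM, and in cat2shr 61.6, 89.1 and 44.3 CPM. All 6 libraries with the shr mutation therefore lay below all 6 without it. The log2 difference was -1.35 ± 0.21 between shr and Col-0 (adjusted p = 5.8e-05) and -1.45 ± 0.21 between cat2shr and cat2 (adjusted p = 4.73e-05).

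After 24 h the double mutant no longer stood with shr. HEMA1 was at 131, 134 and 177 CPM in Col-0, 144, 133 and 187 CPM in cat2, and 157, 137 and 177 CPM in cat2shr. In shr it stayed at 46.8, 44.1 and 50.5 CPM, below every other 24 h library. The rise in cat2shr was 1.27 ± 0.21 on the log2 scale, 2.42-fold (adjusted p = 3.31e-05), with no overlap between the times. Values for the other genotypes were -0.01 ± 0.21 in Col-0, -0.20 ± 0.21 in cat2 and -0.30 ± 0.21 in shr, none of them called. The response of cat2shr exceeded that of shr by 1.57 ± 0.30 (adjusted p = 0.000646) and that of cat2 by 1.47 ± 0.29 (adjusted p = 0.000971). At 24 h cat2shr was 3.34-fold above shr (adjusted p = 2.35e-06), and its log2 difference to cat2 was 0.02 ± 0.21 (adjusted p = 0.943, 95% interval -0.38 to 0.42). HEMA2 (AT1G09940), the second glutamyl-tRNA reductase gene, was the minor copy, at 10.9% to 27.0% of the summed level per kilobase of exon. HEMA2 rose in Col-0 (0.86), cat2 (0.97) and cat2shr (0.48) and fell in shr (-0.67).

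Mg-chelatase, which inserts magnesium into protoporphyrin IX, is built from the subunits CHLH (the GUN5 gene), CHLI and CHLD, and the protein GUN4 stimulates it. GUN5 (AT5G13630, chr5:4387307-4392429, minus strand) had 1632, 1504 and 1483 CPM in unstressed Col-0 and 708, 792 and 981 CPM in stressed Col-0. In cat2 it went from 1340.1, 1574 and 1229 CPM to 535, 478 and 631 CPM. In shr it had 964, 987 and 913 CPM at 0 h and 551, 634 and 754 CPM at 24 h. The double mutant had 1059, 1153 and 810.5 CPM at 0 h and 883, 808 and 999.9 CPM at 24 h, so its times overlapped, unlike in the other genotypes. The log2 changes were -0.90 ± 0.15 in Col-0 (adjusted p = 3.17e-05), -1.33 ± 0.15 in cat2 (adjusted p = 1.05e-07) and -0.56 ± 0.15 in shr (adjusted p = 0.00473). In cat2shr the change was -0.17 ± 0.15 and was not called (adjusted p = 0.327).

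The response of GUN5 in cat2shr differed from that in cat2 by 1.17 ± 0.21 (adjusted p = 0.000322), and at 24 h the double mutant was 1.64-fold above cat2 (adjusted p = 0.00042). At 0 h GUN5 in shr lay below Col-0 (log2 -0.69 ± 0.15, adjusted p = 0.000885). It was also lower in cat2shr than in cat2 at 0 h (-0.46 ± 0.15, adjusted p = 0.0213), a call that did not hold in a fit of those groups alone (adjusted p = 0.0776), without cat2 replicate 2 (adjusted p = 0.13) or cat2shr replicate 3 (adjusted p = 0.134). At 24 h GUN5 was higher in cat2shr than in shr (0.47 ± 0.15, adjusted p = 0.0101). That call was lost with scaling by library size alone (0.0808) and without shr replicate 1 (0.102), shr replicate 2 (0.0532) or cat2shr replicate 3 (0.091), each an adjusted p. The difference between shr and Col-0 at 24 h (-0.36 ± 0.15, adjusted p = 0.048) was lost under 6 alternative settings and without Col-0 replicate 2 or 3 or shr replicate 1 or 2, with adjusted p-values from 0.0768 to 0.323 in those 4 fits.

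CHLI1 (AT4G18480, chr4:10201672-10203469, minus strand) encodes the ATPase subunit. Its 0 h levels were close in all genotypes, at 615, 607 and 633 CPM in Col-0, 553, 625 and 569.8 CPM in cat2, 658, 679 and 633 CPM in shr, and 662, 722 and 697 CPM in cat2shr. No genotype difference was called at 0 h. At 24 h it had 316, 304 and 345 CPM in Col-0, 178, 145 and 215 CPM in cat2, 455, 528 and 553 CPM in shr, and 354, 313 and 380.2 CPM in cat2shr. The 24 h libraries of cat2 were thus the lowest and those of shr the highest, with no overlap of either with the other groups. Stress changed CHLI1 by -0.94 ± 0.11 for Col-0, -1.70 ± 0.11 for cat2, -0.36 ± 0.11 for shr and -0.99 ± 0.11 for cat2shr on the log2 scale (adjusted p = 4.77e-07, 6.2e-11, 0.0121 and 2.11e-07). The fall in shr was not called without shr replicate 2 at 0 h (adjusted p = 0.0567) or shr replicate 1 at 24 h (adjusted p = 0.0971), or with scaling by library size alone (adjusted p = 0.0894). All 4 differences between stress responses were called: cat2 fell further than Col-0 (-0.76 ± 0.15, adjusted p = 0.000633) and cat2shr further than shr (-0.63 ± 0.15, adjusted p = 0.00374), while shr fell less than Col-0 (0.58 ± 0.15, adjusted p = 0.00876) and cat2shr less than cat2 (0.71 ± 0.15, adjusted p = 0.00166). CHLI2 (AT5G45930), the second copy, moved from 140 to 58.1 CPM in Col-0 and from 122 to 19.5 CPM in cat2. Its share of the summed CHLI level per kilobase was 19.1% ± 0.60 in Col-0 at 0 h and 15.9% ± 0.72 at 24 h, and in cat2 18.1% ± 0.43 and 10.2% ± 0.81.

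CHLD (AT1G08520, chr1:2696381-2701022, plus strand) encodes the remaining subunit. Its levels were 481, 476 and 466 CPM in Col-0, 370.2, 351 and 347 CPM in cat2, 392, 381 and 376 CPM in shr, and 365, 362 and 356 CPM in cat2shr at 0 h. At 24 h they were 309, 316 and 337 CPM, 166, 164 and 174 CPM, 276, 304 and 301 CPM, and 242, 233 and 250.4 CPM in the same order. Before stress, Col-0 lay above every mutant library, and the 24 h libraries of cat2 were the lowest of all. CHLD was 1.33-fold below Col-0 in cat2 at 0 h (adjusted p = 3.35e-05) and 1.24-fold lower in shr (adjusted p = 0.000159). Stress changed it by -0.56 ± 0.05, -1.08 ± 0.06, -0.38 ± 0.05 and -0.58 ± 0.05 in Col-0, cat2, shr and cat2shr on the log2 scale, each called (adjusted p at most 2.05e-05). The fall was deeper in cat2 than in Col-0 by -0.52 ± 0.08 (adjusted p = 3.07e-05), and shallower in cat2shr than in cat2 by 0.51 ± 0.08 (adjusted p = 7.26e-05).

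GUN4 (AT3G59400, chr3:21948501-21949796, minus strand) is uncertain, since 946 of its exonic bases (73.0%) lie opposite exons of AT3G59410. The libraries were made with a stranded kit, but the strand setting of the counting is not given in the sources used here. AT3G59410 went up under stress, from 44.1 to 82.9 CPM in Col-0, while GUN4 went down, and the part of shared reads was not tested. At 0 h GUN4 had 109, 119 and 132 CPM in Col-0, 71.1, 91.6 and 87.5 CPM in cat2, 60.8, 66.8 and 53.0 CPM in shr, and 48.3, 42.2 and 35.9 CPM in cat2shr. These 4 groups did not overlap, in that order. At 24 h cat2shr was lowest, with 18.2, 20.4 and 24.8 CPM, and the other 3 groups overlapped between 30.2 and 56.8 CPM. Stress changed GUN4 by -1.33 ± 0.20 in Col-0 (adjusted p = 1.65e-05), -1.04 ± 0.20 in cat2 (adjusted p = 0.000131), and lowered it 2.00-fold in cat2shr (adjusted p = 0.000325). In shr the change was -0.41 ± 0.20 and not called (adjusted p = 0.106), although it was called without shr replicate 3 at 24 h (adjusted p = 0.0384). The response of shr differed from that of Col-0 by 0.92 ± 0.28 (adjusted p = 0.0232), a call lost in 5 of 12 fits that left out 1 library, namely without replicate 3 of Col-0 or shr at 0 h, Col-0 replicate 2 or shr replicates 2 or 3 at 24 h (adjusted p from 0.0598 to 0.0792). At 0 h GUN4 was 1.99-fold lower in shr than in the wild type and 1.98-fold lower in cat2shr than in cat2 (adjusted p = 0.000607 and 0.00109). The difference between cat2 and Col-0 at 0 h was -0.52 ± 0.20 and not called (adjusted p = 0.0629), but was called in 3 alternative fits, DESeq2 among them (adjusted p = 0.0437).

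CHLM (AT4G25080, chr4:12876822-12878703, plus strand), Mg-protoporphyrin IX methyltransferase, fell in all 4 genotypes and was lowest in the stressed groups that carry cat2. In Col-0 it had 379.8, 363 and 367 CPM at 0 h and 273, 280.3 and 330.0 CPM at 24 h. In cat2 it had 294, 314 and 298 CPM and then 155, 151 and 178 CPM. The shr libraries had 293, 287 and 272 CPM and then 184, 215 and 216 CPM, and the cat2shr libraries 272, 276 and 233 CPM and then 169.6, 158 and 166 CPM. At 24 h cat2 and cat2shr overlapped, and both lay below shr. The log2 changes were -0.33 ± 0.09 for Col-0, -0.90 ± 0.09 for cat2, -0.47 ± 0.09 for shr and -0.66 ± 0.09 for cat2shr (adjusted p at most 0.00242). The fall was deeper in cat2 than in Col-0 by -0.57 ± 0.12 (adjusted p = 0.000918). CHLM was not called between cat2shr and cat2 at 24 h, at 0.03 ± 0.09 (adjusted p = 0.819, 95% interval -0.14 to 0.19). Before stress it was 1.30-fold lower in shr than in the wild type (adjusted p = 0.00129). A 1.22-fold difference between cat2 and Col-0 at 0 h (adjusted p = 0.0179) was called in 1 of 6 fits that left out 1 library, that without cat2 replicate 2 (adjusted p from 0.0784 to 0.123 in the other 5), and was not called with scaling by library size alone (adjusted p = 0.207).

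NADPH:protochlorophyllide oxidoreductase (POR), the light-requiring enzyme, is encoded by 3 genes. PORA is known chiefly from etiolated seedlings, PORB from seedlings and green leaves alike, and PORC from green tissue in the light. PORB and PORC gave the 2 deepest falls of the 10 genes in Col-0, cat2 and shr, and the 3 POR genes the deepest in cat2shr. PORB (AT4G27440) had 2625, 2598 and 2364 CPM in unstressed Col-0 and 809, 528 and 938 CPM in stressed Col-0. In cat2 it had 1307, 1205 and 1150.5 CPM at 0 h and 295, 175 and 401 CPM at 24 h. In shr the levels were 2805, 2152 and 1886 CPM and then 961, 1090.1 and 1131 CPM, and in cat2shr 1785, 1656 and 1117 CPM and then 393, 282 and 389 CPM. The stressed groups that carry cat2 lay below every other library. Stress lowered PORB 3.33-fold for Col-0, 4.21-fold for cat2, 2.15-fold for shr and 4.28-fold for cat2shr (log2 -1.74 ± 0.25, -2.07 ± 0.26, -1.10 ± 0.25 and -2.10 ± 0.26; adjusted p at most 0.00172). PORB was already 2.07-fold below Col-0 in cat2 at 0 h (adjusted p = 0.00557), with no overlap. At 24 h cat2 was 2.62-fold below Col-0 (adjusted p = 9.14e-05) and cat2shr 2.99-fold below shr (adjusted p = 3.78e-05). Between cat2shr and cat2 the log2 difference at 24 h was 0.29 ± 0.25 (adjusted p = 0.333, 95% interval -0.19 to 0.78). The response of cat2shr differed from that of shr by -0.99 ± 0.35 (adjusted p = 0.0338), but the call was lost in 7 of 12 fits that left out 1 library, with adjusted p from 0.0557 to 0.0832 without any of shr replicates 2 and 3 at either time, cat2shr replicates 1 and 2 at 0 h, or cat2shr replicate 2 at 24 h.

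PORC (AT1G03630, chr1:907523-909650, plus strand) differed more between genotypes after stress than before it. At 0 h it had 321, 314 and 306 CPM in Col-0, 249, 247 and 232 CPM in cat2, 327, 283 and 256 CPM in shr, and 274, 243 and 213 CPM in cat2shr. No genotype difference was called at 0 h, but the cat2 libraries all lay below those of Col-0 (log2 -0.37 ± 0.20, adjusted p = 0.19), and a fit of those groups alone called it (adjusted p = 0.0031). At 24 h it had 102, 78.2 and 123 CPM in Col-0, 26.0, 18.2 and 36.2 CPM in cat2, 119, 155 and 147 CPM in shr, and 57.2, 38.2 and 57.1 CPM in cat2shr. The 24 h order was shr and Col-0, which overlapped, then cat2shr, then cat2, without overlap. The fall was 9.06-fold in cat2 (log2 -3.18 ± 0.22, adjusted p = 2.03e-10), 4.79-fold in cat2shr (-2.26 ± 0.21, adjusted p = 3.72e-08), 3.10-fold in Col-0 (-1.63 ± 0.20, adjusted p = 1.65e-06) and 2.05-fold in shr (-1.04 ± 0.20, adjusted p = 0.000487). Tested against each other, the response was deeper in cat2 than in Col-0 by -1.54 ± 0.29 (adjusted p = 0.000319) and in cat2shr than in shr by -1.22 ± 0.28 (adjusted p = 0.003). It was shallower in cat2shr than in cat2 by 0.92 ± 0.29 (adjusted p = 0.0198), a call lost without cat2 replicate 2 at 24 h (adjusted p = 0.0532). At 24 h cat2shr was 1.90-fold above cat2 (adjusted p = 0.00087). The difference between shr and Col-0 at 24 h was 0.48 ± 0.20 and just missed the threshold (adjusted p = 0.0533), and it was called under 6 alternative settings, DESeq2 among them (adjusted p = 0.0284), and without Col-0 replicate 3 (0.0188) or shr replicate 1 (0.036).

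PORA (AT5G54190) had the lowest level per kilobase of the 10 genes in unstressed Col-0. Its levels were 91.9, 89.8 and 60.7 CPM in unstressed Col-0 and 38.6, 19.6 and 40.7 CPM in stressed Col-0. In cat2 they were 36.3, 41.1 and 31.6 CPM and then 18.4, 12.1 and 20.5 CPM, and in shr 47.6, 50.2 and 39.2 CPM and then 21.5, 31.0 and 29.0 CPM. The cat2shr libraries had 29.3, 66.3 and 22.2 CPM and then 11.4, 5.38 and 10.3 CPM, the lowest group. Stress lowered PORA 2.45-fold in Col-0 (adjusted p = 0.0048), 2.14-fold in cat2 (adjusted p = 0.0114) and 4.34-fold in cat2shr (adjusted p = 9.19e-05). The call in cat2 was lost without cat2 replicate 2 at 24 h (adjusted p = 0.0591). In shr the log2 change was -0.75 ± 0.36 and not called (adjusted p = 0.102), though the times did not overlap and a fit of those groups alone called it (adjusted p = 0.0106). Between shr and Col-0 at 0 h the difference was -0.82 ± 0.35 and not called (adjusted p = 0.0661), but was called by DESeq2 (0.0408) and in a fit of those groups alone (0.0169). Before stress PORA was 2.22-fold lower in cat2 than in Col-0 (adjusted p = 0.0267), with no overlap, but leaving out any 1 of the 6 libraries other than Col-0 replicate 3 lost the call (adjusted p from 0.0602 to 0.111). At 24 h cat2shr was 3.01-fold below shr (adjusted p = 0.00165). The remaining calls for PORA were near the threshold. They were cat2 below Col-0 at 24 h (adjusted p = 0.0294), cat2shr below cat2 at 24 h (0.048), and a fall deeper in cat2shr than in shr by -1.37 ± 0.51 (0.0463). The first was lost without Col-0 replicate 1 or 3 or cat2 replicate 1 or 2 at 24 h, with adjusted p up to 0.123. The second was lost without any 1 library of the 6 except cat2 replicate 2, with adjusted p up to 0.217. The last was lost in 8 of 12 fits, without any shr library at 0 h, shr replicate 2 or 3 at 24 h, cat2shr replicate 2 at 0 h, or cat2shr replicate 2 or 3 at 24 h, with adjusted p up to 0.164.

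Summed per kilobase of exon, the POR genes went from 1765 to 539 CPM per kb in Col-0, from 902 to 202 in cat2, from 1579 to 741 in shr and from 1086 to 250.1 in cat2shr. PORB made up 82.5% to 87.9% of the sum in each group mean. The share of PORC in cat2 was 15.1% ± 0.46 at 0 h and 7.54% ± 0.59 at 24 h, while in Col-0 it was 9.96% ± 0.38 and 10.6% ± 0.87. The mean PORC share of cat2 was the highest of the 4 genotypes before stress, when its libraries overlapped those of cat2shr, and the lowest after it. The exons of PORA and PORB shared no run of 50 bases, and the longest run in common was 48 bases. LHY, a clock gene expressed around dawn, stood before stress at 2.55 to 13.6 CPM in Col-0, against 12.1 to 33.0 CPM in cat2, a difference that was not called (adjusted p = 0.071). At 24 h LHY had 6.86 to 12.2 CPM in Col-0 and 26.4 to 39.9 CPM in cat2 (adjusted p = 0.0285). Of 9 clock genes, none was higher and 1 (GI) was lower in cat2 than in the wild type before stress, and 3 were higher and 2 lower after it. Over all genes, 11.5% were higher and 11.8% lower before stress, and 31.4% and 32.7% after it. At 24 h TOC1 (log2 -0.60), PRR9 (2.33) and ELF4 (-0.72) had the smallest adjusted p. In shr against Col-0, 4 clock genes were lower before stress and 5 after it, none higher (all genes: 24.1% and 26.9% lower, 21.3% and 25.8% higher). Under stress 3 rose and 3 fell in Col-0 (all genes: 29.7% and 29.6%), 3 and 1 in cat2 (38.7% and 36.3%), none and 2 in shr (20.4% and 20.9%), and 2 and 1 in cat2shr (32.7% and 31.7%). The hour of sampling is not given, and its part in the levels of the 10 genes was not tested.

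**Figure D3:**
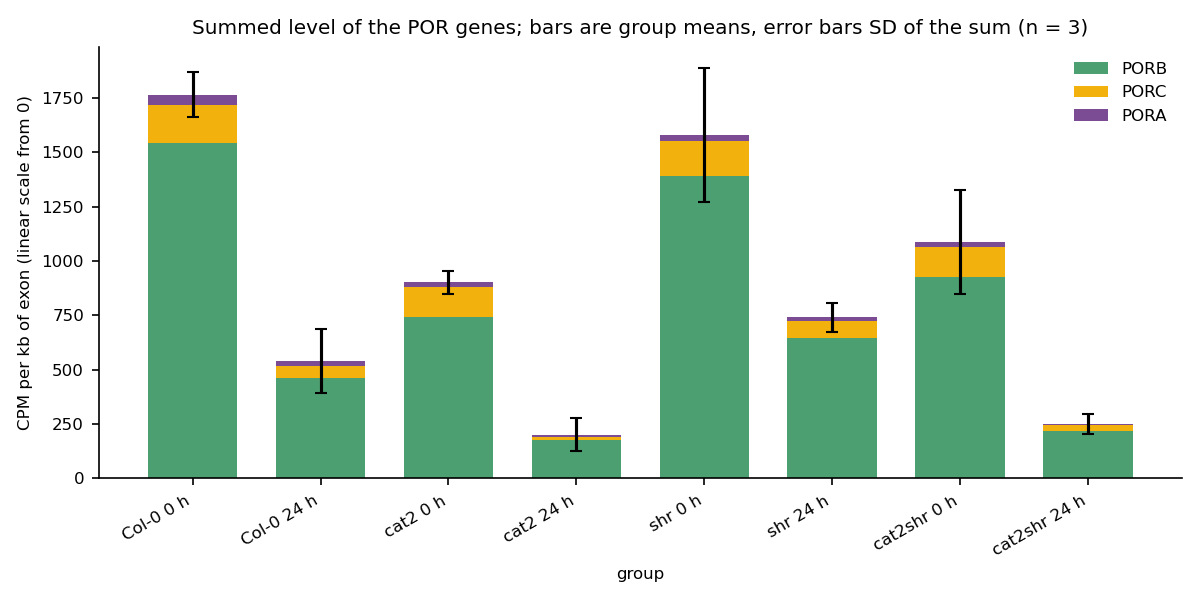
Summed level of PORA, PORB and PORC (CPM per kilobase of exon, linear axis from 0) in the 8 groups, as stacked group means with the SD of the sum over 3 libraries. The sum is lower at 24 h in each genotype, and the stressed cat2 (202) and cat2shr (250.1) groups are the lowest.

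CAO (AT1G44446), chlorophyllide a oxygenase, which makes chlorophyll b, had the smallest span. At 0 h it had 195, 225 and 243 CPM in Col-0, 155, 246 and 205 CPM in cat2, 134, 163 and 114 CPM in shr, and 131, 117 and 97.0 CPM in cat2shr. At 24 h it had 101, 101 and 140.4 CPM in Col-0, 141, 140.5 and 149.6 CPM in cat2, 76.6, 119 and 131 CPM in shr, and 111, 123 and 127 CPM in cat2shr. The times overlapped in shr and cat2shr and not in Col-0 and cat2. The fall in Col-0 was -0.96 ± 0.19 on the log2 scale (adjusted p = 0.000308). In cat2 it was -0.49 ± 0.19 (adjusted p = 0.0268), a call lost without cat2 replicate 2 at 0 h (0.107) or cat2 replicates 1 (0.0636) or 2 (0.0671) at 24 h, each an adjusted p. The values in shr (-0.33 ± 0.19) and cat2shr (0.06 ± 0.19) were not called, and no difference between stress responses was called for CAO. Before stress CAO was 1.62-fold lower in shr than in the wild type (adjusted p = 0.0067; 0.0581 without shr replicate 3) and 1.75-fold lower in cat2shr than in cat2 (adjusted p = 0.00328).

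The genotype comparisons can be counted across the 10 genes. At 0 h, cat2 was lower than Col-0 for 4 genes (CHLD, CHLM, PORA and PORB) and higher for none, where 23.3% of all genes were called (11.5% higher and 11.8% lower). Without 1 library the count was 2 or 3, and the count over all genes, 4741 with every library, was 2988, 2994 and 3048 without Col-0 replicate 1, Col-0 replicate 2 and cat2 replicate 2 at 0 h. For shr against Col-0 it was 6 lower and none higher (HEMA1, GUN4, GUN5, CHLD, CHLM and CAO), against 45.3% of all genes (21.3% higher and 24.1% lower). For cat2shr against cat2, HEMA1, GUN4, GUN5 and CAO were lower and none higher, against 34.9% (17.2% higher and 17.8% lower). None of the 10 was called between cat2shr and shr at 0 h by edgeR, where 3.03% of all genes were called (1.44% higher and 1.59% lower), and by DESeq2 none either, and 2 of the 10 (GUN4 and PORB) had an unadjusted p under 0.05. That background rests on single libraries, since the 616 genes called became 225 without shr replicate 2, 233 and 298 without cat2shr replicates 2 and 3, and 970 without cat2shr replicate 1. At 24 h, cat2 was lower than Col-0 for 7 genes and higher for none, against 64.1% (31.4% higher and 32.7% lower), and cat2shr against cat2 gave 4 higher (GUN5, CHLI1, CHLD and PORC) and 2 lower (GUN4 and PORA), against 55.1% (27% higher and 28.1% lower). For shr against Col-0 at 24 h, CHLI1 was higher and HEMA1, GUN5 and CHLM lower, against 52.7% (25.8% higher and 26.9% lower). For cat2shr against shr, HEMA1 and GUN5 were higher and 7 genes lower, against 55.2% (27.3% higher and 27.9% lower). These comparisons share groups, and their counts are not independent.

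The stress responses themselves differed between genotypes for some of the genes. Against Col-0, the response in cat2 was lower for 4 genes (CHLI1, CHLD, CHLM and PORC) and higher for none, where 38.2% of all genes were called (18.8% higher and 19.4% lower). In shr against Col-0 it was higher for CHLI1 and GUN4 and lower for none, against 25.7% (12.6% higher and 13.1% lower). In cat2shr against cat2 it was higher for 5 genes (HEMA1, GUN5, CHLI1, CHLD and PORC) and lower for none, against 30.9% (15.6% higher and 15.4% lower). In cat2shr against shr it was higher for HEMA1 and lower for CHLI1, PORA, PORB and PORC, against 35.3% (17.5% higher and 17.8% lower).

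The other genes of the pathway were read from lists of known loci. Most genes named from these lists had 1 of the 3 smallest adjusted p in the comparison given. A genotype left out for a gene is therefore not one without a change there. Of 24 tested genes for the remaining chlorophyll and shared steps, from 25 listed, 19 fell and 1 rose for Col-0, 22 fell and 1 rose for cat2, 20 fell and none rose for shr and 21 fell and 1 rose for cat2shr. The riser was HEMA2 in each case. Over all genes, 29.7% rose and 29.6% fell for Col-0, and 38.7% and 36.3% for cat2. The shares were 20.4% and 20.9% for shr, and 32.7% and 31.7% for cat2shr. Median log2 changes of the 24 genes were -0.68, -1.07, -0.41 and -0.67 in that order, against -0.02 to 0.03 over all genes. HEMC, porphobilinogen deaminase, changed by -1.08 in Col-0, -1.74 in cat2 and -1.26 in cat2shr on the log2 scale. PPOX1, protoporphyrinogen oxidase, changed by -0.68 in Col-0, -0.41 in shr and -0.67 in cat2shr. CHLI2 changed by -2.65 in cat2, -1.82 in cat2shr and -0.86 in shr. HEME1, uroporphyrinogen decarboxylase, changed by -0.87 in Col-0, and PPOX2, a second protoporphyrinogen oxidase gene, by -0.38 in shr. LIL3:1, a thylakoid protein that stabilises geranylgeranyl reductase, fell by 1.89 in cat2. At 24 h, cat2shr was higher than cat2 for 18 of the 24 and lower for 1, against 27% and 28.1% of all genes. At the same time cat2 was lower than Col-0 for 22 and higher for none, against 32.7% and 31.4% of all genes. CHLG, chlorophyll synthase, was 0.97 higher on the log2 scale in cat2shr than in cat2; between cat2 and Col-0 the difference was -1.09.

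Haem, bilin and sirohaem genes did not move in 1 direction. Of 9 tested, 2 rose and 2 fell for Col-0, 3 rose and 2 fell for cat2, 2 rose and 1 fell for shr and 4 rose and 3 fell for cat2shr, with medians between -0.07 and 0.06. The 1 that fell in shr was HO4, which was under 1 CPM in every library. FC1, a ferrochelatase, rose by 0.93 in Col-0 and 1.41 in cat2, whereas FC2, the other ferrochelatase, changed by -1.69 in cat2 and -1.10 in cat2shr. HO2, a haem oxygenase-like gene, changed by -0.71 in Col-0, -1.67 in cat2 and -0.83 in cat2shr. HY1, the main haem oxygenase, rose by 0.41 in Col-0 and 0.20 in shr, HY2, phytochromobilin synthase, by 0.71 in cat2shr, and SIRB, sirohaem ferrochelatase, by 0.25 in shr. Of 13 breakdown genes, 7 rose and 2 fell for Col-0, 7 and 5 for cat2, 6 and 4 for shr and 8 and 3 for cat2shr. Their medians were 0.62, 0.32, 0.26 and 0.89. Over all genes the shares called higher and lower were 29.7% and 29.6% in Col-0, 38.7% and 36.3% in cat2, 20.4% and 20.9% in shr, and 32.7% and 31.7% in cat2shr, and the same shares stand behind the haem and regulator counts. These counts were not tested as lists. ACD2, red chlorophyll catabolite reductase, changed by -1.23 in cat2, where it had the smallest adjusted p of the list (2.22e-11). HCAR, hydroxymethyl chlorophyll a reductase, changed by -0.96 in cat2 and -0.44 in shr. PAO, pheophorbide a oxygenase, rose by 0.93 in Col-0 and 0.50 in shr. MES16, which demethylates chlorophyll catabolites, rose by 3.88 in Col-0, 1.67 in shr and 3.35 in cat2shr. In cat2 the largest rise of the breakdown list was 4.16, that of a gene the naming rule left out there. PPH, pheophytinase, rose by 1.08 in Col-0, 1.39 in cat2 and 1.01 in cat2shr. NYE1, the Mg-dechelatase that starts breakdown, rose by 1.82 in cat2shr and was 1.65 higher there than in shr at 24 h.

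Of 17 regulators, 9 rose and 4 fell for Col-0, 7 and 5 for cat2, 6 and 2 for shr and 6 and 5 for cat2shr. GLK1, an activator of chlorophyll synthesis and antenna genes, changed by -1.78 for Col-0, -1.35 for cat2, -1.04 for shr and -1.24 for cat2shr. HY5, an activator in light, rose by 1.31 in Col-0, 1.06 in cat2 and 0.95 in shr. PIF4, a phytochrome-interacting factor, changed by -1.64 in cat2 and -1.69 in cat2shr. PIF3, of the same family, rose by 1.17 in shr and 0.79 in cat2shr. CGA1, a GATA factor that promotes greening, rose by 2.67 in Col-0. The largest rise among the 17 regulators was 2.39 in cat2, 1.17 in shr and 2.11 in cat2shr. FHY3 and FAR1, factors of phytochrome A signalling, rose by 0.54 in both cat2 and cat2shr (FHY3) and by 0.45 in shr (FAR1).

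**Figure D4:**
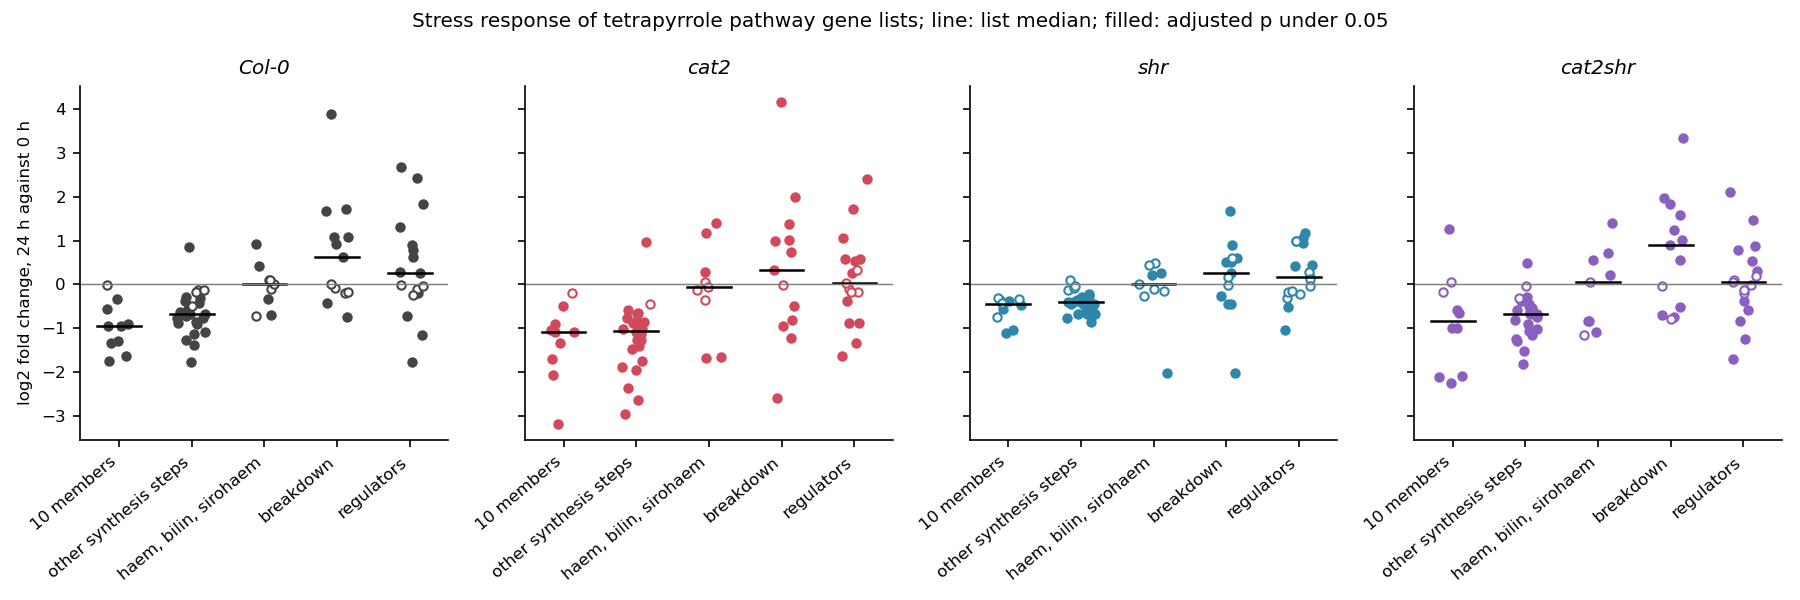
Log2 fold change at 24 h against 0 h for the 10 genes and for the other tetrapyrrole lists, by genotype. Each point is a gene, filled if its adjusted p was under 0.05, and black lines are medians. Synthesis genes lie mostly below 0 (medians -0.68 and -1.07 for the other steps in Col-0 and cat2) and breakdown genes lie on both sides (medians 0.62 and 0.32).

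Across the 8 group means the 10 genes gave 45 pairs, with a median Pearson r of 0.70, 16 pairs over 0.8 and 5 below 0. The closest pair was PORB with PORC (r = 0.98), and the most opposed was HEMA1 with CHLI1 (r = -0.49). Likeness to other genes was ranked by Pearson r of log2 CPM over the same 8 means among all tested genes. For PORC the top gene was CHLI2 (r = 0.999), the second Mg-chelatase ATPase gene, and for CHLM it was HB25 (r = 1.00) followed by CAB1 (r = 0.99), a light-harvesting chlorophyll-binding protein. PORB was closest to AT5G48440 (r = 0.999), PORA to DOT3 (r = 0.99), CHLD to AT2G41080 (r = 0.996) and CHLI1 to AT3G24040 (r = 0.995). GUN5 was closest to RIP2 (r = 0.988), GUN4 to AT4G28230 (r = 0.984), HEMA1 to AT5G28010 (r = 0.978) and CAO to AUR3 (r = 0.972). With 8 points drawn from shared groups, and 20346 candidates for each gene, these values describe and do not test.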

How the data were processed

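Shoot RNA from 24 libraries in 8 groups of 3 was measured by sequencing. The deposited values are raw whole-number counts per locus, which the authors left without normalization. Per the submitters' processing notes, the tools were Subread 1.4.6 (featureCounts), TopHat2 2.1.0 and Trim Galore 0.3.3, with the build TAIR10. The strand setting of the counting was not found there. Of 33602 loci, 6798 had 0 counts in all libraries.

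Genes were kept by filterByExpr (20347 genes). edgeR 4.0.16 in R 4.3.3 was fitted to all 24 libraries with TMM scaling, 1 mean per group and robust quasi-likelihood (common dispersion 0.0195), and 16 contrasts were tested. The SE is the size of the log2 change over the root of F, and intervals are 1.96 SE on each side. The fit was tested on simulated data. Alternatives were other scalings and filters, a replicate block, DESeq2 1.42.0, fits of the compared groups alone, and each library left out. Nothing says that libraries came from separate plants, so the spread behind each p-value is that between these samples and may be technical. The 10 genes and the lists were chosen with earlier results of these data known. From each pathway list the rule names up to 3 genes with the smallest adjusted p in a contrast. Outside the clock list, the text gives all of these for the stress responses and only some for the genotype differences. Clock genes are given as counts for the stress responses and for cat2 and shr against Col-0. Only for cat2 against Col-0 are any named (GI, LHY, TOC1, PRR9 and ELF4). LHY at 24 h was outside the rule. GLK1 in cat2, shr and cat2shr, HEMA2, and the CHLI2 levels were added after their values were seen. Promoters were read from the genome with Python 3 scripts. Per-kilobase levels used merged exons.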

Additional observations from a re-analysis of the deposited data

Results flagged for a closer look

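Stress responses that differed between genotypes in a test of the difference itself were marked for a second look, 16 values in all, each on the log2 scale with its SE. For cat2 against Col-0, 4 of the 10 genes were called, where 38.2% of all genes were, and for shr against Col-0 2 (25.7%). For cat2shr against cat2, 5 were called (30.9%), and against shr 1 higher and 4 lower (35.3%). The response of HEMA1 in cat2shr exceeded that in cat2 by 1.47 ± 0.29 and that in shr by 1.57 ± 0.30. GUN5 in cat2shr exceeded cat2 by 1.17 ± 0.21. CHLI1 differed in each of the 4 comparisons: -0.76 ± 0.15 for cat2 against Col-0, 0.58 ± 0.15 for shr against Col-0, 0.71 ± 0.15 for cat2shr against cat2 and -0.63 ± 0.15 for cat2shr against shr. CHLD gave -0.52 ± 0.08 for cat2 against Col-0 and 0.51 ± 0.08 for cat2shr against cat2. CHLM gave -0.57 ± 0.12 for cat2 against Col-0, and GUN4 gave 0.92 ± 0.28 for shr against Col-0. PORC gave -1.54 ± 0.29 for cat2 against Col-0, 0.92 ± 0.29 for cat2shr against cat2 and -1.22 ± 0.28 for cat2shr against shr. For PORA and PORB the response in cat2shr was lower than in shr by -1.37 ± 0.51 and -0.99 ± 0.35. The values for PORA, PORB, GUN4 and, between cat2shr and cat2, PORC lost their call when 1 library was left out.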

How the results depend on the processing

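No called change of the 10 genes reversed under any alternative run. Whether replicate numbers pair the libraries was not settled. Deviations from the group mean correlated from -0.13 to 0.37 between libraries of the same number, and unlike numbers were not compared. A fit with the replicate block called 9, 9, 6 and 8 of the 10 genes under stress, as without it. These counts are for Col-0, cat2, shr and cat2shr. With scaling by library size alone, 8 rather than 5 genes differed between the stress responses of cat2shr and shr; that scaling moved the median of all genes there by -0.24. With 1 library left out, the number called was 2 to 3 for cat2 against Col-0 at 0 h (4 with all libraries), 1 to 3 for the difference between shr and Col-0 responses (2) and 3 to 7 for that between cat2shr and shr (5). Uncalled values near 0 changed sign. HEMA1 in Col-0 (-0.01) became 0.0093 with RLE scaling, 0.035 with library size alone, 0.019 with no filter, 0.0094 with DESeq2 and 0.0013 with the groups compared alone, and ranged from -0.12 to 0.14 with 1 library left out. With library size alone, the values were -0.066 for CAO in cat2shr, 0.015 for CHLD between shr and Col-0 at 24 h, and -0.030 and -0.022 for HEMA1 and CHLM between cat2shr and cat2 at 24 h. With 1 library left out, CAO in cat2shr ranged from -0.076 to 0.14, HEMA1 between cat2shr and shr at 0 h from -0.14 to 0.38, and HEMA1 and CHLM between cat2shr and cat2 at 24 h from -0.078 to 0.18 and from -0.020 to 0.10. Under the replicate block PORC between shr and Col-0 at 24 h was gained (adjusted p = 0.0391) and 3 calls were lost, those of PORA between cat2shr and cat2 at 24 h (adjusted p = 0.0644), of PORA between the responses of cat2shr and shr (0.0646) and of GUN5 between shr and Col-0 at 24 h (0.0516). Over all genes, 616 were called between cat2shr and shr at 0 h, but 1234 by DESeq2, 7 with those groups alone and 225 to 970 with 1 library left out, and 4712 rather than 7105 between cat2shr and cat2 at 0 h with those groups alone. The cause was not tested.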

Other observations

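HO4 (AT1G58300), a haem oxygenase gene 1355 bases from HEMA1 and the next gene on that side, was lower in each unstressed library with the shr mutation than in those without it, but near the detection limit throughout. In unstressed Col-0 it had 0.517, 0.946 and 0.698 CPM, against 0.238, 0.0781 and 0.138 CPM in shr. In cat2 it had 0.57, 0.438 and 0.416 CPM, and in cat2shr 0.0649, 0 and 0.0687 CPM. In stressed cat2shr, where HEMA1 was at the level of Col-0, HO4 had 0.0265, 0 and 0.0268 CPM. AT4G27450, whose exons overlap 71 exonic bases of PORB on the other strand, averaged 37.0 CPM before and 350.4 CPM after stress in Col-0, and 91.8 and 1044 CPM in cat2, a rise where PORB fell.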
